A study of Mus musculus with 10 samples.

Results

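The genes described here are 9 transcripts used to recognise microglia in their resting, homeostatic state: P2ry12, P2ry13, Gpr34, Cx3cr1, Tmem119, Siglech, Selplg, Olfml3 and Sall1. They were picked by name, by matching the mouse symbol to the Ensembl gene identifier of each row in a count table of 56884 genes. The choice was made with earlier results of these data known. All 9 were found, and all 9 were among the 17622 genes with enough counts to be tested. Hippocampal RNA was sequenced from 10 ovary-intact female P301S mice, with 1 library per mouse. These animals carry a human Tau transgene with the P301S mutation on a mixed B6;C3 background, driven by the mouse prion protein promoter. The transgene is present in both groups, so no animal without Tau pathology was compared. At 6 months of age, 5 females received a subcutaneous SILASTIC implant filled with 10 mm of dihydrotestosterone (DHT) powder, an androgen that aromatase cannot turn into estrogen, and 5 received an empty (void) implant. Treatment lasted 12 weeks, and tissue of both groups was collected at 9 to 9.5 months of age. The comparison asked how raised androgen changes the female brain with Tau pathology.

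Microglia are the resident macrophages of the brain. In the healthy adult brain they are kept in their homeostatic state by TGF-β, by colony-stimulating factor signalling through Csf1r and by contact with neurons, for instance through the neuronal chemokine fractalkine (Cx3cl1) and its microglial receptor Cx3cr1. In models of neurodegeneration, microglia around lesions take on a disease-associated (DAM) profile, in which genes such as Trem2, Cst7 and Clec7a are high and homeostatic genes are commonly low. The 9 genes thus cover sensors of nucleotides, lipids and chemokines, surface proteins, a secreted protein and a transcription factor that share a cell type rather than a pathway.

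RefSeq promoter windows of GRCm38.p6 were at hand for 6 of the 9 genes, and 3 are shown, each as the 250 bases before the annotated start, on the strand of the gene. P2ry12 and P2ry13 are shown because they are neighbouring relatives on chromosome 3 that are compared with each other below, and Cx3cr1 because it passed the test. The windows lie at chr3:59262986-59263235, chr3:59210883-59211132 and chr9:120068297-120068546, all on the minus strand. Capitals mark matches, on either strand, to GAGGAA, the core bound by the macrophage factor PU.1, or to AGGTCA, a site shared by many nuclear receptors, though not the preferred one of the androgen receptor.
P2ry12: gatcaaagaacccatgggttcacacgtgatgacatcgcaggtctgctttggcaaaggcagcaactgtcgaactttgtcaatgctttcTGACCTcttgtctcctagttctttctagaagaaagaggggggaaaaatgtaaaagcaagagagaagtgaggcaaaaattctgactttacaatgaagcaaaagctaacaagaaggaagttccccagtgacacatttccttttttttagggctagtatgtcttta
P2ry13: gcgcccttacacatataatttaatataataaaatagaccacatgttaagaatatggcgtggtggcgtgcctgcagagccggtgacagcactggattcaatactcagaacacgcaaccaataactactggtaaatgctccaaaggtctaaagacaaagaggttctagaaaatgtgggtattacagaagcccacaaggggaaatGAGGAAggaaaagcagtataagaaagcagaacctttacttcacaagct
Cx3cr1: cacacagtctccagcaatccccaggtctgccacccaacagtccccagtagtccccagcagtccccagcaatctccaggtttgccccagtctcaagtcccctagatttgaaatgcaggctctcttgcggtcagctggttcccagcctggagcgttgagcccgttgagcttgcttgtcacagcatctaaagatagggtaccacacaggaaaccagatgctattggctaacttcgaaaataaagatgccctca
Among the 8 windows of the 6 genes, GAGGAA occurred in that of P2ry13 only, 48 bases before the start, and AGGTCA in that of P2ry12 only, on the opposite strand and 163 bases before the start. Of 32851 mouse windows of this length, 23.3% held GAGGAA and 14% held AGGTCA. The matches describe letters and no binding was measured.

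Libraries held between 27188854 and 47113661 counts, and each of the 9 genes had between 318 and 5150 counts in every library. At a gene's mean count over all libraries, counting error was 1.79% to 4.0% of its level. It is larger in a library with fewer counts than that mean. Levels are given below as TMM-normalised CPM, counts scaled to a common library size. A gene was called at a p under 0.05 after Benjamini-Hochberg adjustment over all genes tested, computed by the quasi-likelihood method of edgeR, and a log2 fold change above 1 was taken as the fold limit. The libraries of void-treated females all come before those of DHT-treated females in library order, so order and treatment cannot be told apart. Markers of choroid plexus also moved with treatment. Summed over 12 genes they reached 361 to 3259 CPM with void, highest in void mouse 9, and 3894 to 5721 CPM with DHT, and 5 of the 12 were called higher. The tissue was sequenced in bulk, so that in what follows a change in the number of microglia (fewer or more cells) and a change in the RNA of each cell (less or more) cannot be told apart.

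None of the 9 homeostatic genes was lower with DHT. All 9 had a positive log2 fold change, from 0.16 for P2ry12 to 0.61 for Olfml3, with a median of 0.38 against 0.01 over all genes tested. Cx3cr1 and Gpr34 rose, by 0.54 and 0.57 on the log2 scale, so 2 of 9 were called higher, beside 5.22% of all genes tested. Called lower were 0 of 9, beside 0.261%, and 0 of 9 passed the fold limit upward, beside 2.17%. At an unadjusted p under 0.05, 8 of the 9 were higher, beside 13.1% of all genes, and P2ry12 was the gene that missed it. This count depended on DHT mouse 1: when that mouse was left out, only Cx3cr1 and Gpr34 still met the unadjusted limit. The log2 fold changes of all 9 then stayed positive but were smaller, from 0.05 for P2ry12 to 0.44 for Olfml3. With all mice kept, DESeq2 also called 2 of 9 higher, Gpr34 and Cx3cr1, and 0 lower.

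**Figure D1:**
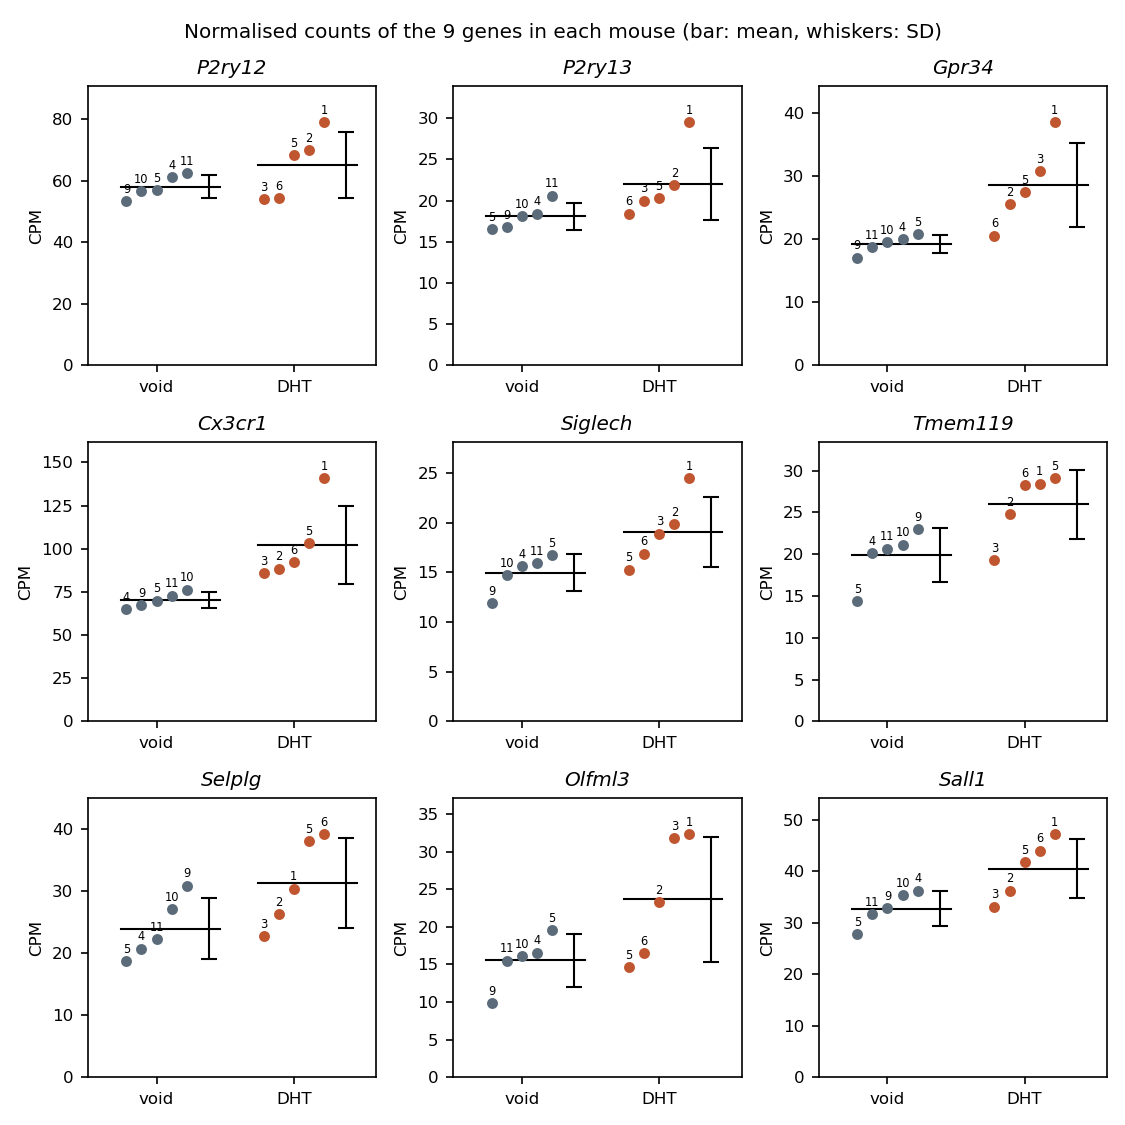
Normalised counts (CPM, vertical axis from 0) of the 9 genes in each mouse, with void-treated females in grey and DHT-treated females in orange; numbers are mouse numbers, the long line is the mean and the whisker the SD of 5 mice. Only for Cx3cr1 do all DHT-treated mice (86.0 CPM and above) lie over all void-treated mice (76.4 CPM and below), and DHT mouse 1 is the highest DHT-treated mouse for 7 of the 9 genes.

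Below, values by mouse are given for void mice 4, 5, 9, 10 and 11 and for DHT mice 1, 2, 3, 5 and 6, in that order. Cx3cr1, the fractalkine receptor through which microglia sense neurons, was at 64.8, 70.0, 67.4, 76.4 and 72.9 CPM with void and at 141, 88.4, 86.0, 103 and 92.1 CPM with DHT. Every DHT-treated mouse was above every void-treated mouse, a separation that 5.39% of all genes tested showed in this direction. The level went from 70.3 ± 4.53 to 102 ± 22.6 CPM (SD, n = 5 each), and the spread between mice was wider with DHT (22.1% of the mean) than with void (6.45%). DHT over void, the log2 change was 0.54 ± 0.12 (standard error; 95% interval 0.27 to 0.80, adjusted p = 0.0251), and the two-sided exact permutation test gave p = 0.00794, the smallest that 5 mice against 5 allow. Without DHT mouse 1, far above the others at 141 CPM, the fold change was 0.36 and still called (adjusted p = 0.0320). The call was lost without void mouse 4, 5 or 11 or without DHT mouse 5, with adjusted p values from 0.0528 to 0.0820.

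Gpr34, a relative of the P2Y receptors that senses lysophosphatidylserine, was at 20.02, 20.8, 17.1, 19.5 and 18.7 CPM with void and at 38.5, 25.6, 30.8, 27.4 and 20.6 CPM with DHT. DHT mouse 6 fell just under void mouse 5, and the other DHT-treated mice lay above all void-treated mice. Its mean went from 19.2 ± 1.43 to 28.6 ± 6.67 CPM (SD, n = 5 each), and the log2 fold change of 0.57 had a standard error of 0.14 and a 95% interval of 0.27 to 0.87 (adjusted p = 0.0335, exact permutation p = 0.0159). This call held when DHT mouse 2 or 6 was left out. It was lost without any 1 of the other 8 mice, with adjusted p values from 0.0523 to 0.115 and fold changes from 0.41 to 0.60.

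P2ry12, the ADP receptor that steers microglial processes towards injury, was at 61.1, 57.0, 53.4, 56.7 and 62.4 CPM with void and at 79.0, 69.9, 54.0, 68.3 and 54.5 CPM with DHT. DHT mice 3 and 6 lay within the void range, and DHT mice 1, 2 and 5 above it. The means of 58.1 ± 3.63 and 65.1 ± 10.8 CPM (SD, n = 5 each) gave a log2 change of 0.16 ± 0.10 (standard error; adjusted p = 0.479), with a 95% interval from -0.06 to 0.39, and the change was 0.05 without DHT mouse 1. P2ry13, its ADP-sensing neighbour, was at 18.4, 16.6, 16.8, 18.1 and 20.6 CPM with void and at 29.5, 21.9, 19.98, 20.3 and 18.4 CPM with DHT. DHT mice 1 and 2 alone were above all void-treated mice. The log2 change was 0.28 ± 0.12 (standard error; 95% interval 0.02 to 0.55, adjusted p = 0.243), and it was 0.12 without DHT mouse 1.

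The surface proteins Tmem119, Siglech and Selplg had intermediate differences that did not pass the test. Tmem119, a transmembrane protein that marks microglia against other brain macrophages, was at 20.1, 14.4, 23.02, 21.1 and 20.7 CPM with void and at 28.4, 24.8, 19.3, 29.1 and 28.2 CPM with DHT. DHT mouse 3 was within the void range and the other 4 DHT-treated mice were above it. Siglech, a sialic acid-binding lectin also made by plasmacytoid dendritic cells, was at 15.6, 16.7, 11.9, 14.7 and 15.9 CPM with void and at 24.4, 19.8, 18.9, 15.3 and 16.9 CPM with DHT. Here DHT mouse 5 was within the void range, and void mouse 9 was lowest. Selplg, which encodes the P-selectin ligand PSGL-1, was at 20.7, 18.8, 30.9, 27.2 and 22.3 CPM with void and at 30.4, 26.3, 22.7, 38.1 and 39.1 CPM with DHT. For Selplg 3 of 5 DHT-treated mice overlapped the void range, whose top was void mouse 9. The log2 fold changes were 0.38 for Tmem119 (95% interval 0.09 to 0.68, adjusted p = 0.148), 0.35 for Siglech (0.07 to 0.63, adjusted p = 0.165) and 0.39 for Selplg (0.02 to 0.76, adjusted p = 0.263). Without DHT mouse 1 that of Siglech was 0.21.

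Olfml3, a secreted olfactomedin-like protein, had the largest fold change of the 9 and the widest spread. It was at 16.6, 19.6, 9.87, 16.1 and 15.5 CPM with void and at 32.3, 23.2, 31.8, 14.6 and 16.5 CPM with DHT. DHT mice 1, 2 and 3 were above all void-treated mice, whereas DHT mice 5 and 6 lay within the void range. The SD was 22.8% of the mean with void and 34.9% with DHT, and the log2 change of 0.61 ± 0.24 (standard error; 95% interval 0.10 to 1.12) had an adjusted p of 0.190. Sall1, the zinc finger factor that maintains microglial identity, was at 36.2, 27.8, 32.8, 35.4 and 31.6 CPM with void and at 47.2, 36.3, 33.2, 41.8 and 44.0 CPM with DHT. DHT mouse 3 was inside the void range and DHT mouse 2 only just above it. For Sall1 the log2 change was 0.30 ± 0.10 (standard error; 95% interval 0.08 to 0.53, adjusted p = 0.127).

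**Figure D2:**
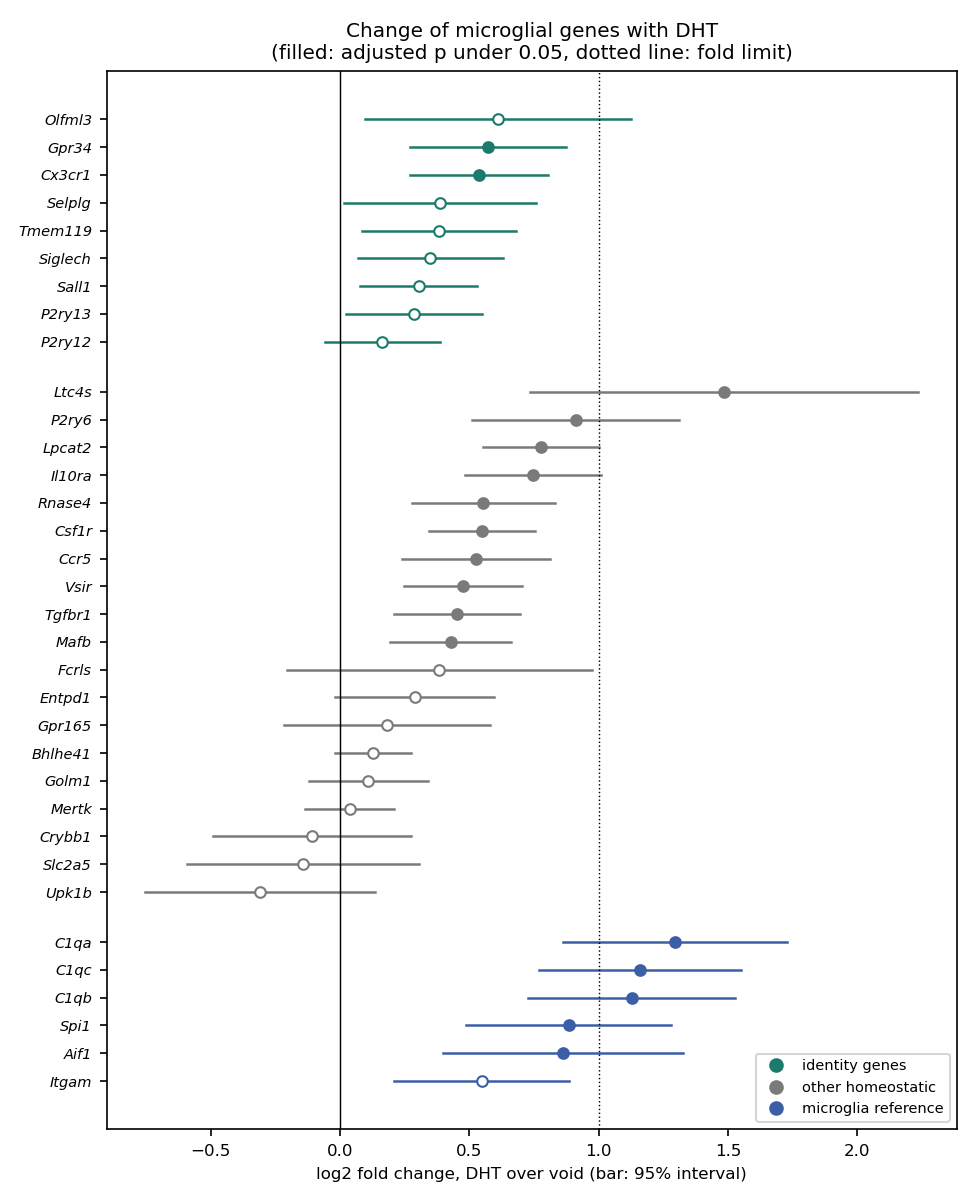
Log2 fold change, DHT over void (horizontal axis), with 95% intervals for the 9 identity genes (green), other homeostatic genes (grey, with Csf1r) and 6 microglia reference genes (blue). Filled points have an adjusted p under 0.05; Cx3cr1 and Gpr34 are the filled points of the 9, and all 9 intervals reach from near or above 0 to at most 1.12.

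Per kilobase of exon, P2ry12 was the most abundant of the 9 in void-treated females at 22.8 ± 1.43 CPM per kilobase (SD, n = 5). It was followed by Cx3cr1 (15.6 ± 1.01), Gpr34 (9.20 ± 0.68), Tmem119 (8.58 ± 1.41), P2ry13 (7.15 ± 0.64), Sall1 (6.23 ± 0.64), Selplg (5.61 ± 1.16), Siglech (4.42 ± 0.55) and Olfml3 (2.52 ± 0.57). The void ranges of neighbours did not overlap between P2ry12 and Cx3cr1, between Cx3cr1 and Gpr34, or between Siglech and Olfml3, and overlapped for the other 5 neighbouring pairs. With DHT, the order P2ry12 over Cx3cr1 held in 4 of 5 mice, compared with 5 of 5 with void. DHT mouse 1 had 31.0 CPM per kilobase of P2ry12 and 31.2 of Cx3cr1. Exon lengths are those of GENCODE M21, and the 6.16 kilobases of Olfml3 include a long annotated transcript of 5465 bases, so its level per kilobase is low to the extent that shorter forms are used. The exons of Selplg span 4.27 kilobases and its longest transcript 2314 bases, and those of Siglech 3.38 kilobases and 2301 bases. Their levels per kilobase are therefore low as well, and their places in the order depend on the length used.

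**Figure D3:**
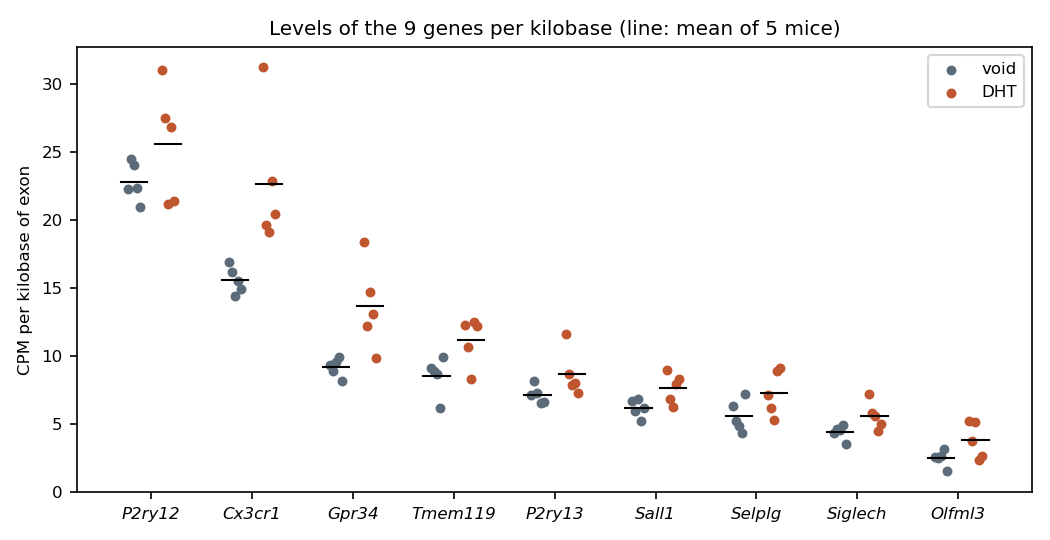
CPM per kilobase of exon (vertical axis, from 0) of each gene in each void-treated (grey) and DHT-treated (orange) female, ordered by the void mean; lines are means of 5 mice. P2ry12 and Cx3cr1 stand above the other 7 genes in both groups, and their DHT-treated mice share a range that their void-treated mice do not.

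Within a treatment group the 9 genes did not rise and fall as 1 block. After each group's mean was subtracted, P2ry12 and P2ry13 varied together over the 10 mice (Pearson r = 0.83), and so did Tmem119 with Selplg (0.84), Tmem119 with Sall1 (0.82) and Siglech with Olfml3 (0.89). Selplg ran against Olfml3 (-0.83) and Siglech (-0.66). These values describe 10 libraries that share depth and preparation effects, and they carry no test. In DHT mouse 5, Olfml3 was 0.62 below its DHT mean on the log2 scale and Selplg 0.31 above it, and void mouse 9 had the like pattern at -0.62 and 0.39.

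The libraries also differed in how GC-rich transcripts were represented. The median deviation of 3453 genes above 55.3% GC minus that of 3457 genes below 43.6% GC was 0.25 in void mouse 9, 0.32 in DHT mouse 5 and 0.51 in DHT mouse 6 on the log2 scale, and between -0.26 and 0.07 in the other 7 libraries. Over the 9 genes, the GC content of the longest annotated transcript ran from 37.1% for Gpr34 and 38.6% for P2ry12 to 59.0% for Tmem119. It was 49.8% for Selplg and 52.4% for Olfml3. Its part in the patterns among the 9 genes was not tested. With an offset for GC content per library, an alternative chosen after seeing the data, again 2 of 9 genes were called higher, beside 1240 of 17622 genes tested. These were Gpr34 (0.63, adjusted p = 0.00690) and Cx3cr1 (0.51, adjusted p = 0.0236), while Olfml3 was at 0.58 (adjusted p = 0.198) and Selplg at 0.36 (adjusted p = 0.189). Without DHT mice 5 and 6, also chosen after seeing the data, 4 of 9 were called higher, beside 771 of 18087 genes tested. The 4 were Gpr34 (0.72, adjusted p = 0.0161), Cx3cr1 (0.58, adjusted p = 0.0498), Siglech (0.49, adjusted p = 0.0488) and Olfml3 (0.90, adjusted p = 0.0268), while Selplg was at 0.15 (adjusted p = 0.667).

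**Figure D4:**
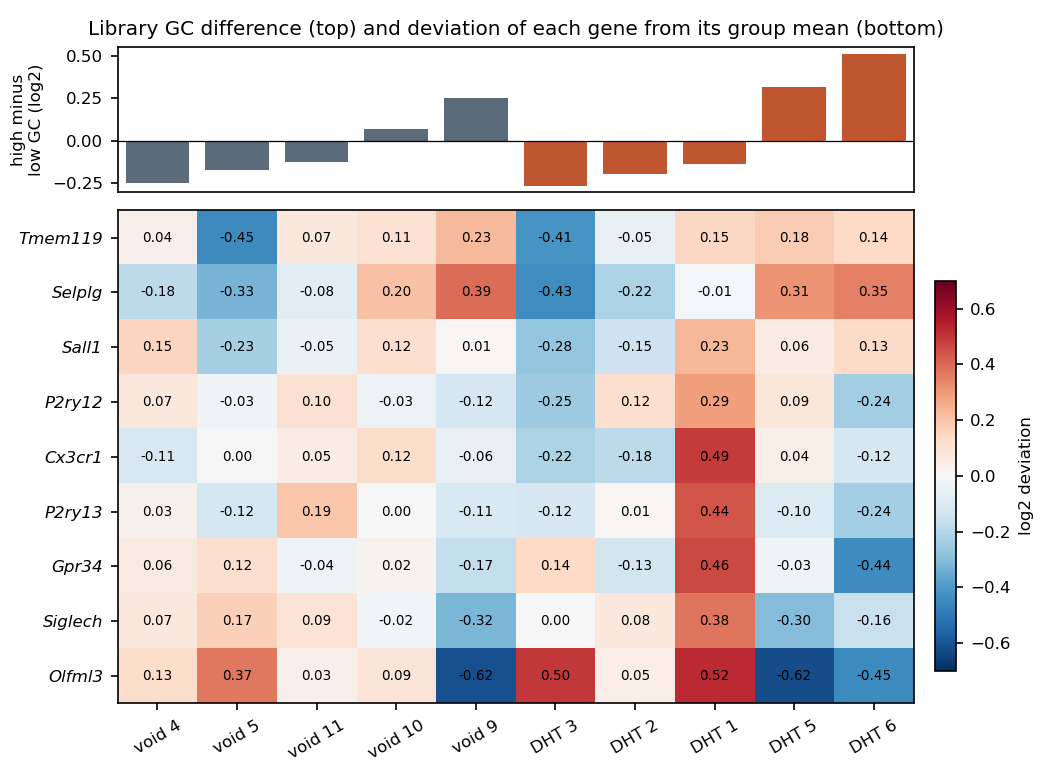
Top, difference between GC-rich and GC-poor transcripts in each library (log2), ordered within void (grey) and DHT (orange); bottom, log2 deviation of each gene from the mean of its own group, red above and blue below. In void mouse 9 and DHT mice 5 and 6, which have the highest GC differences, Selplg is above and Olfml3 below its group mean, by up to 0.39 and 0.62. The GC content of the longest transcript is 49.8% for Selplg and 52.4% for Olfml3.

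P2ry12, P2ry13 and Gpr34 sit within larger genes on the opposite strand, and how the counting treated strand was not stated. P2ry12 and P2ry13 lie inside Med12l, a subunit gene of the Mediator complex, and share 9 and 0 exonic bases with it. Gpr34 lies inside Cask, a neuronal scaffold gene, with 0 shared exonic bases. Neither host gene was called: the log2 fold change was -0.16 for Med12l (adjusted p = 0.262) and -0.11 for Cask (adjusted p = 0.298), and that of the neighbour Igsf10 was 0.29 (adjusted p = 0.255). The related receptor P2ry14 was scarce, with 1.92 ± 0.56 CPM in void-treated and 1.68 ± 0.36 in DHT-treated females (SD, n = 5 each; log2 fold change -0.19, adjusted p = 0.745). Gpr171 and Gpr82 had at most 4 counts in any library and were not tested. Cx3cr1 shares 78 exonic bases, 1.7% of its exons, with another gene on the opposite strand. Over all libraries that gene held 58 counts, beside 31306 for Cx3cr1.

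Of 31 genes listed as ligands, regulators and partners of the 9, 25 were tested, 5 were called higher and 0 lower, and their median log2 fold change was 0.24. Fractalkine itself did not pass the test: Cx3cl1 had 502 ± 43.8 CPM in void-treated and 473 ± 77.9 CPM in DHT-treated females (SD, n = 5 each; log2 fold change -0.09, 95% interval -0.32 to 0.15, adjusted p = 0.763), beside the rise of its receptor. In the TGF-β pathway, Tgfb1 (0.63, adjusted p = 0.0388) and the type 2 receptor Tgfbr2 (0.66, adjusted p = 0.00927) rose. The type 1 receptor Tgfbr1 rose as well (0.45, adjusted p = 0.0370), whereas the signal transducer Smad3 was at -0.17 (adjusted p = 0.281). Of the ligands of Csf1r, Csf1 rose by 0.43 (adjusted p = 0.0242), and Il34, the ligand made mainly by neurons, was at -0.16 (adjusted p = 0.369). The myeloid transcription factors Irf8 (1.18, adjusted p = 0.00670) and Runx1 (0.86, adjusted p = 0.0332) rose as well, with larger fold changes than any of the 9 genes.

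Other microglial genes were higher too, several by more. Of 20 further homeostatic genes, 17 had a positive log2 fold change, 11 were called higher and 0 lower. Their log2 fold changes ran from -0.311 to 1.485, with a median of 0.44. Lpcat2, an enzyme of phospholipid remodelling, rose by 0.78 (adjusted p = 0.00670), the interleukin-10 receptor chain Il10ra by 0.75 (adjusted p = 0.00800), the UDP receptor P2ry6 by 0.91 (adjusted p = 0.0153) and the checkpoint protein Vsir by 0.48 (adjusted p = 0.0220). Csf1r, the receptor on which microglia depend for survival, rose by 0.55 (adjusted p = 0.00965). The 8 microglia reference genes, which include Csf1r, ranged from 0.55 to 1.296 with a median of 0.87, and 7 of 8 were called higher. The fold changes of Olfml3 and Gpr34 stood at the low end of that range, and those of the other 7 genes were below it, with Cx3cr1 at 0.54 just under Itgam at 0.55. Of 28 DAM genes, 20 were called higher, with a median of 0.99. Trem2 rose by 1.32 (adjusted p = 0.00761), Cst7 by 3.59 (adjusted p = 0.00761) and Clec7a by 3.36 (adjusted p = 0.00990), and Apoe was at 0.39 (adjusted p = 0.0802).

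Marker lists of border macrophages and blood leukocytes, which can express some of the 9 genes, had low sums. Of 10 border macrophage markers 9 were tested and 0 called, and their summed level was 15.4 to 34.4 CPM with void and 19.9 to 31.3 with DHT. Stab1 made up most of that sum, with means of 14.4 CPM with void and 14.6 with DHT. At an unadjusted p under 0.05, 2 of the 9 tested were higher, beside 13.1% of all genes tested. They were Siglec1 (log2 fold change 1.51, adjusted p = 0.115) and Ms4a7 (1.12, adjusted p = 0.152), with group means of at most 1.02 CPM. Of 11 blood leukocyte markers 2 were tested and 0 called, with sums of 1.06 to 2.33 CPM and 1.86 to 3.14 CPM. No gene of these lists was at 0 in every library. Of 8 plasmacytoid dendritic cell markers, bearing on Siglech, 5 were tested and 2 were called higher, Bst2 (1.94) and Irf7 (2.18), both also induced by interferon in other cells, while Ly6d, Cd209d and Klk1 had at most 3 counts in any library. The sum of that list, 1179 to 1274 CPM with void and 1088 to 1173 with DHT, came mostly from Tcf4 and Pacsin1, which neurons express. The 12 choroid plexus markers are given above. With their mean level as a covariate, 0 of the 9 genes and 0 of all genes were called, although the fold changes of Cx3cr1 and Gpr34 stayed at 0.54 (adjusted p = 0.667) and 0.59 (adjusted p = 0.685). Under this covariate the fold change was 0.11 for Selplg, 0.14 for Tmem119 and 0.13 for Sall1, each less than in the fit without it, and 0.93 for Olfml3, which is more. With the mean level of 10 neuron genes as a covariate, again 0 genes were called, and the values were 0.49 for Cx3cr1 (adjusted p = 0.139) and 0.31 for Gpr34 (adjusted p = 0.209). Here the fold change was 0.18 for Olfml3 and 0.23 for Siglech, less than in the fit without it, and 0.60 for Selplg, which is more.

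To set each gene against other microglial genes in the same sample, the mean log2 CPM of the 8 reference genes was subtracted within each mouse. All 9 genes were then lower on average with DHT, by 0.31 (Olfml3) to 0.73 (P2ry12) on the log2 scale. The size of each difference depends on which genes form the list. Csf1r and Itgam had log2 fold changes of 0.55, and the complement genes C1qa, C1qb and C1qc had 1.296, 1.13 and 1.16. Sall1 was lower in all 5 DHT-treated mice (-0.29 to 0.26) than in all 5 void-treated mice (0.33 to 0.98), a difference of -0.58 (two-sided exact permutation test, p = 0.00794). How many of all genes tested were fully apart by this measure was not counted, so the separation is not read as particular to Sall1. P2ry12 differed by -0.73 (p = 0.0159), P2ry13 by -0.61 (p = 0.0159), Siglech by -0.54 (p = 0.0476) and Cx3cr1 by -0.36 (p = 0.0159), in exact permutation tests that were not adjusted over the 9 genes. The other 4 genes gave exact permutation p values of 0.0556 for Gpr34, 0.0635 for Tmem119, 0.0714 for Selplg and 0.302 for Olfml3. With each mouse left out in turn, P2ry12, P2ry13, Cx3cr1 and Sall1 passed every time. Siglech missed the threshold without void mouse 4, 5 or 11 or DHT mouse 1, 3, 5 or 6 (exact permutation p from 0.0635 to 0.0952). Gpr34 came to pass without void mouse 9 or 10 or DHT mouse 2, Tmem119 without void mouse 5, and Selplg without void mouse 5 or DHT mouse 6.

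That 5 of 9 genes passed is to be read against the measure itself. Because the reference genes rose, 85.3% of all 17622 genes tested were lower against them by the same test, with a median difference of -0.87, and each of the 9 genes differed by less than that median. The measure shows unequal change between a gene and the reference list, and does not show that the gene's own level fell. For P2ry12 the level differed by 0.16 while the reference mean was 4.20 to 4.76 with void and 4.93 to 5.75 with DHT on the log2 CPM scale, so that its log2 distance to that mean shrank from 1.42 ± 0.28 to 0.69 ± 0.30 (SD, n = 5 each). Subtracting the mean of the 28 DAM genes gave exact permutation p values under 0.05 for 8 of 9 genes, beside 91.8% of all genes, with differences from -0.65 (Olfml3, p = 0.0873) to -1.06 (P2ry12, p = 0.00794). With the median of the DAM genes in place of their mean, 2 of these 8 passed, P2ry12 and Sall1. With the mean, Tmem119 missed the threshold without void mouse 4, 9, 10 or 11, and Olfml3 passed without void mouse 9.

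**Figure D5:**
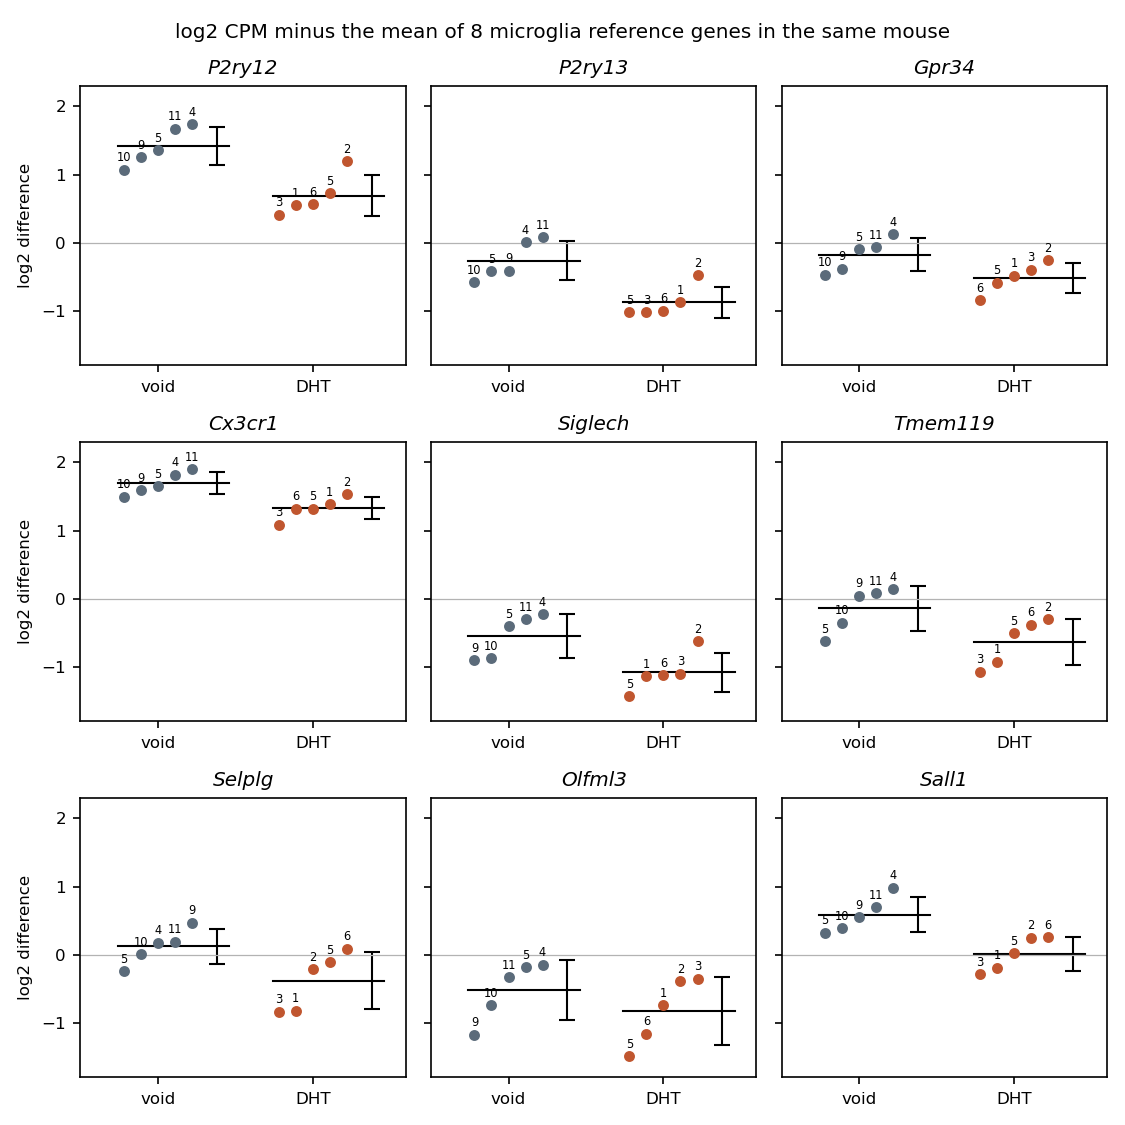
Log2 CPM of each gene minus the mean log2 CPM of 8 microglia reference genes in the same mouse (vertical axis, 0 means equal), with mouse numbers, means and SD of 5 void-treated (grey) and 5 DHT-treated (orange) females. Among the 9 genes, the groups are fully apart for Sall1 alone, and DHT mouse 2 is the highest DHT-treated mouse for 6 of the 9. The share of all genes fully apart by this measure was not counted.

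P2ry12 and P2ry13 lie side by side and bind the same nucleotide, and they were compared as a ratio. Like any ratio of genes within a library, it does not depend on library size. The GC content of their longest transcripts differs (38.6% for P2ry12 and 44.7% for P2ry13), and its part in the ratio was not tested. The ratio of P2ry12 to P2ry13 was 3.31, 3.44, 3.18, 3.13 and 3.02 in the void-treated and 2.68, 3.19, 2.7, 3.36 and 2.95 in the DHT-treated females. DHT mice 1, 3 and 6 were under all void-treated mice and mice 2 and 5 within their range. On the log2 scale the ratio was 1.68 ± 0.07 in void-treated and 1.57 ± 0.15 in DHT-treated females (SD, n = 5 each), a difference of -0.12 that did not pass the two-sided exact permutation test (p = 0.151).

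Finally, the 5 other genes whose group-centred log2 CPM tracked the mean of the 9 most closely over the 10 mice were Kcnk2 (Pearson r = 0.94), Sspo (0.92), Sash1 (0.91), Abca1 (0.90) and Tifa (0.90). Of these, Abca1, a cholesterol exporter, rose with DHT (log2 fold change 0.66, adjusted p = 0.0115), and the other 4 did not pass the test. The likeness is taken over 10 points in which DHT mouse 1 weighs heavily, and it carries no test.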

How the data were processed

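Hippocampal mRNA libraries from 10 mice (KAPA mRNA HyperPrep, paired-end NovaSeq) were deposited by the authors as raw counts per gene. Per the paper's methods, reads were filtered with HTStream and aligned to mm10 with STAR 2.7.10b, while the submitters' processing notes name GRCm39. The build therefore remained unsettled, and no coordinates are given for the counts. The annotation release and the treatment of strand and shared reads are not given in the sources used here. Identifiers were paired with symbols from GENCODE M21, which named 51948 of 56884 rows, and rows without a symbol held 0.396% of counts.

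Groups came from the treatment label. Counts were filtered by group (filterByExpr), normalised by TMM and tested with edgeR 4.0.16 in R 4.3.3 (quasi-likelihood test, Benjamini-Hochberg adjustment). A standard error is |log2 fold change| / √F. Log2 CPM for tests within mice used a prior count of 2, and single values were compared by two-sided exact permutation over the 5 and 5 mice. Each library is 1 animal. The models were tested on simulated data.

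The 9 genes, the lists and the tests were chosen with earlier results of these data known. Named were all 9 genes, host genes, set regulators and homeostatic genes where tested, up to 6 called genes of each of those 2 lists with the lowest p, 4 DAM genes and the 5 genes most alike. The set genes were Csf1r, Cx3cl1, Tgfb1, Tgfbr1, Tgfbr2, Smad3, Il34, Csf1, P2ry14, Gpr171 and Gpr82, and the result for 1 more is not reported here. Bst2, Irf7, Ly6d, Cd209d, Klk1, Tcf4, Pacsin1, Stab1, Siglec1, Ms4a7, C1qa, C1qb and C1qc were named after their values were seen. DESeq2 1.42.0, other size factors and filters, covariates, prior counts, list medians and leaving out each mouse were alternatives, and a GC offset and leaving out DHT mice 5 and 6 were added after seeing the data. Protein sequences were not used here.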

Additional observations from a re-analysis of the deposited data

Results flagged for a closer look

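Samples standing apart were looked for in 56 groups of 5 values: the CPM of the 9 genes, their distances to the microglia reference and DAM lists, and the ratio of P2ry12 to P2ry13. Chance alone would mark about 2.8 of them, and 1 was marked. It was P2ry13 against the microglia reference list in DHT mouse 2, which at -0.47 stood above the other 4 DHT-treated mice (-1.02 to -0.87), with a gap of 0.724 of the group's range against a critical value of 0.71. In this mouse the mean log2 CPM of the reference genes was 4.93, the lowest of the DHT-treated mice. Without it, the difference of P2ry13 from the list was -0.71 (exact permutation p = 0.00794) in place of -0.61.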

How the results depend on the processing

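Of the 9 genes, 2 were called higher under DESeq2, DESeq2 size factors, library size alone, either filter on low counts and the GC offset. This count was 0 with the choroid plexus covariate, 0 with the neuron covariate and 4 without DHT mice 5 and 6, and it lay between 0 and 2 when each mouse was left out. All genes called higher numbered 920 in the main analysis, 1186 with DESeq2, 1240 with the GC offset and 771 without DHT mice 5 and 6. They numbered 0 with either covariate and 351 to 1072 with a mouse left out. The cause of these changes in the calls was not tested. Among the 9 genes, the counts called lower or beyond the fold limit were 0 under every alternative run. No log2 fold change of the 9 genes changed sign. Of the 171 values recomputed for them, 153 kept their side of the threshold, 16 lost a call and 2 gained one. Against the microglia reference list, 99 of 117 kept their side, 7 no longer passed and 11 came to pass, with the median of the list passing for Gpr34 (-0.58), Tmem119 (-0.73) and Selplg (-0.74). Against the DAM list 97 of 108 kept their side. With a prior count of 0.5 none of the calls within mice changed. The difference in the ratio of P2ry12 to P2ry13 lay between -0.16 and -0.08 with a mouse left out and missed the threshold each time. The paper states that littermates were randomised to the implants, but the labels used here name no litter, so no paired analysis was possible. Mouse number 5 occurs in both groups and names different animals. Per the paper, mice were caged with others of their own treatment group, so cage and treatment cannot be told apart. With 5 mice a group, 95% intervals of the 9 fold changes were 0.45 to 1.03 wide on the log2 scale, which limits how finely the 9 genes can be told apart.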
